A study of Mus musculus with 16 samples.

Results

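The genes described here encode the core of the insulin receptor pathway. They were taken from a fixed list of 9 symbols, Insr, Irs1, Irs2, Pik3r1, Pik3ca, Akt1, Akt2, Foxo1 and Ptpn1, and all 9 were found by symbol among the 18194 genes measured on the array. Each gene was represented by its brightest probe set, judged by the mean of the 16 arrays, and the other 19 of the 28 probe sets that name one of these genes alone served as a check.

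Transcripts of the liver were quantified on 3' oligonucleotide arrays in male KK-Ay mice aged 11 weeks, obese, insulin-resistant carriers of the yellow agouti (Ay) allele that serve as a model of type 2 diabetes. After 1 week of acclimation, 8 mice received the AIN-93G-based normal diet and 8 received that diet with 0.1% of a maple syrup extract (MSE). Pair-feeding lasted 43 days, and the mice had fasted for 16 h when their livers were collected. Each array held RNA of 1 mouse, both groups carry the same genotype, and no lean or non-diabetic group was analysed here.

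Insulin binds the receptor tyrosine kinase encoded by Insr, which phosphorylates the adaptor proteins Irs1 and Irs2. These recruit phosphoinositide 3-kinase, made of a regulatory subunit (Pik3r1) and a catalytic subunit (Pik3ca), whose lipid product activates the kinases Akt1 and Akt2. Akt keeps the transcription factor Foxo1 out of the nucleus, so that in fasted or insulin-resistant liver Foxo1 is free to raise genes of glucose production, and the phosphatase encoded by Ptpn1 (PTP1B) switches the receptor off. Irs2 is the adaptor whose transcript is known to rise in liver during fasting.

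The deposited values are log2-like, and their spread sets how they can be read. The 9 genes had pooled within-diet SDs between 3.56 and 216 millionths of a log2 unit, far less than ordinary array summaries show, so their differences cannot be read as fold changes. Values below are therefore deviations from a gene's mean over the 16 mice, in millionths of a log2 unit. Differences are standardized, that is, divided by the pooled SD within diets, and are given with a 95% interval and with a count over the 64 possible pairings of an MSE mouse with a normal-diet mouse. Diets are compared within a probe set, and p-values measure the spread between mice. The hepatocyte markers Alb, Ttr and Apoa1 were at deposited levels of 14.34, 13.94 and 13.81 log2 units, and the array medians over all probe sets were between 6.0387 and 6.0388.

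No member differed between the diets at an adjusted p under 0.05 in limma, where 0 of 18194 genes (0%) passed. At an unadjusted p under 0.05 there were 0 of 9 members, against 6.66% of all genes. As deposited, 4 members had a higher mean with MSE (Irs1, Irs2, Pik3ca and Akt2) and 5 a lower one (Insr, Pik3r1, Akt1, Foxo1 and Ptpn1), where 48.3% of all genes were higher, and the signs of Insr, Akt1, Foxo1 and Ptpn1 turned under another array scaling, as given with each gene below. The median standardized difference was -0.48 over the members and -0.02 over all genes. The diets overlapped in all 9 members, and 0.0495% of all genes had no overlap. Standardized differences ran from 0.03 to 0.80 in size with 95% intervals reaching 1.04 to 1.06 to either side. Shifts of 1, 2 and 3 SDs were simulated in a small share of genes, with independent noise. They passed the adjusted threshold in 1.49%, 30.1% and 78.8% of the shifted genes. Shifts of these sizes could thus be missed with 8 mice per diet.

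**Figure D1:**
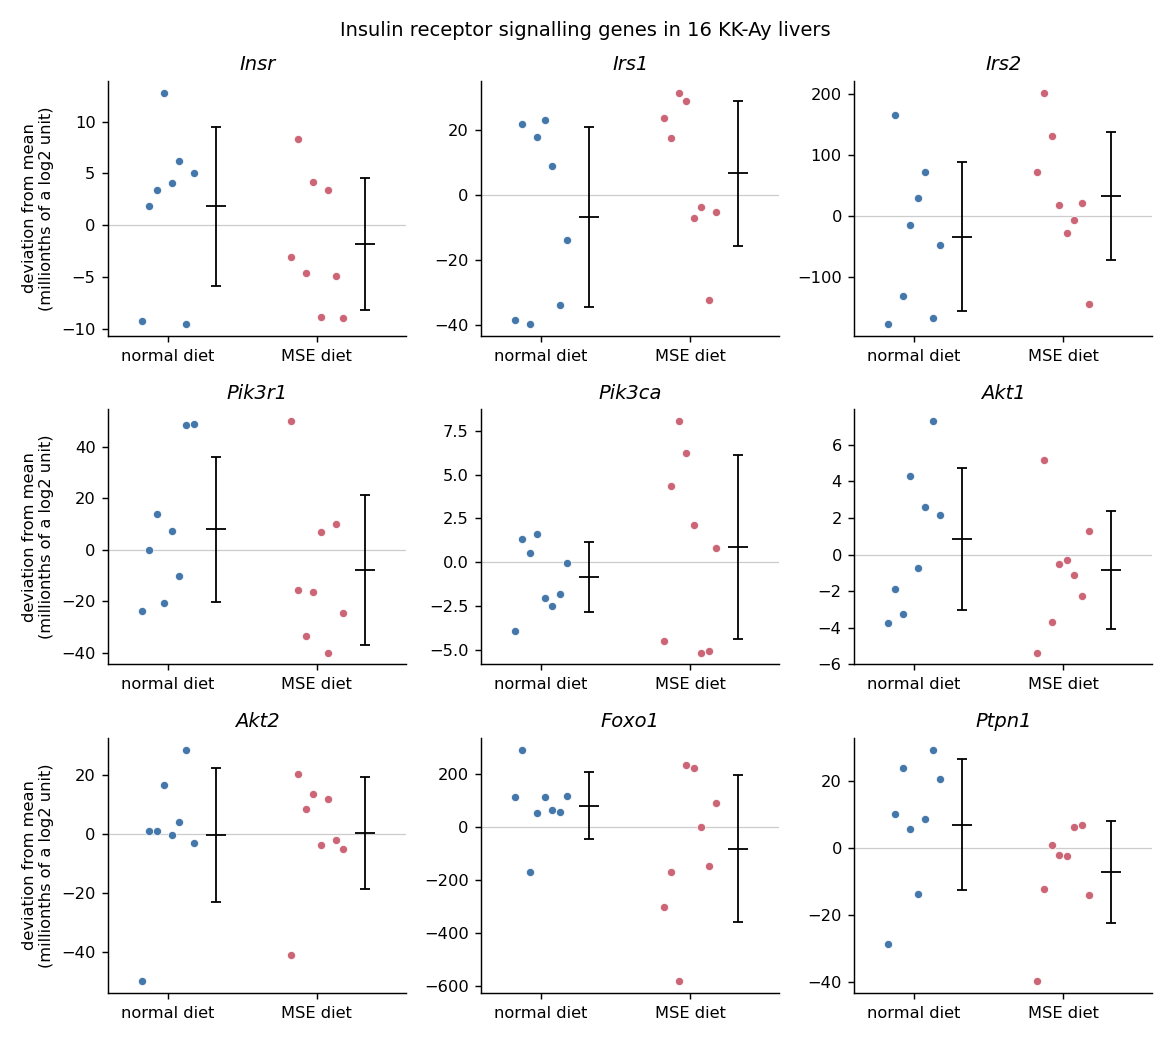
Deviation of each mouse from the gene's mean over 16 mice (vertical axis, millionths of a log2 unit, a scale of its own for each gene) in the 9 insulin receptor signalling genes, with 1 point per mouse and the mean and SD (n = 8) as a black bar. The diets overlap in every panel, and single low mice stand out for Akt2 at -49.8 and -40.8.

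The receptor gene Insr, on the probe set that stands for it (1434446_at, level 8.92 log2 units), ran from -9.57 over a median of 3.73 to 12.8 on the normal diet. With MSE its lowest value was -8.92, the median -3.85 and the highest value 8.32. The ranges covered each other almost fully. The standardized difference was -0.51 (95% interval -1.56 to 0.53; limma adjusted p 0.934; exact two-sided permutation p 0.312), with the MSE mouse higher in 25 of 64 pairs, and its sign turned after centring on array medians and after quantile normalization. The other Insr probe sets went the other way. The probe set 1421380_at, at a level of 5.83 log2 units, was 1.36 SDs higher (95% interval 0.31 to 2.41) in 54 of 64 pairs, with an unadjusted limma p of 0.0147 and an adjusted p of 0.655 over all probe sets. The third, 1450225_at at a level of 5.96, was 0.54 SDs higher. Both are at levels near the array median. Within diets they varied with the main probe set, 1434446_at, at a Pearson r of 0.06 and -0.08 over 16 mice. The 3 probe sets thus gave no single direction for the receptor transcript.

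Both adaptor genes had higher means with MSE, by less than the spread among mice. Irs1 ran from -39.9 (median -2.36) to 23.2 on the normal diet, and from -32.4 (median 6.91) to 31.7 with MSE. In either diet 4 mice were below the overall mean and 4 above it. The standardized difference was 0.53 (95% interval -0.51 to 1.57; limma adjusted p 0.926; exact permutation p 0.298), higher in 44 of 64 pairs. Irs2 was among the more variable genes on these arrays, with a pooled SD of 113 millionths, larger than in 95.5% of all genes. On the normal diet it ran from -177 in replicate 1 (median -31.0) to 166 in replicate 2, and with MSE from -143 in replicate 8 (median 19.3) to 202 in replicate 2. The span within either diet was several times the distance between the medians. Irs2 was 0.59 SDs higher (95% interval -0.45 to 1.63; limma adjusted p 0.905; exact permutation p 0.254) in 43 of 64 pairs. Each adaptor had 1 probe set, so no second measurement was at hand.

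The diet difference of Irs2 was not told from that of Irs1. With each gene divided by its SD over the 16 mice, Irs2 minus Irs1 was 0.05 ± 0.36 higher with MSE (SE, n = 8 per diet; exact permutation p 0.882, also 0.882 adjusted over 3 pairs of related genes).

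Across mice the adaptors varied together. After removal of the diet means, Pearson's r of Irs1 with Irs2 was 0.74 over 16 mice (permutation p 0.00263, adjusted p 0.0479 over 51 correlations) and Spearman's rho was 0.71 (permutation p 0.00521, adjusted p 0.133). Pearson's r was 0.80 without the 2 mice farthest from the median of Irs1, and 0.61 after centring on array medians. It was 0.26 after quantile normalization, which left members with only 3 to 7 different values over the 16 arrays. Normal-diet replicates 1, 3 and 7 were low for both genes, and replicate 2 of either diet was the highest for Irs2. Irs2 also had an r of 0.58 with Insr (permutation p 0.0237, adjusted p 0.204) and of 0.58 with G6pc, the glucose-6-phosphatase gene (permutation p 0.024, adjusted p 0.204), neither of which passed the adjustment. All correlations of Irs2 rest on its single probe set, at the low level of 6.36 log2 units.

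**Figure D2:**
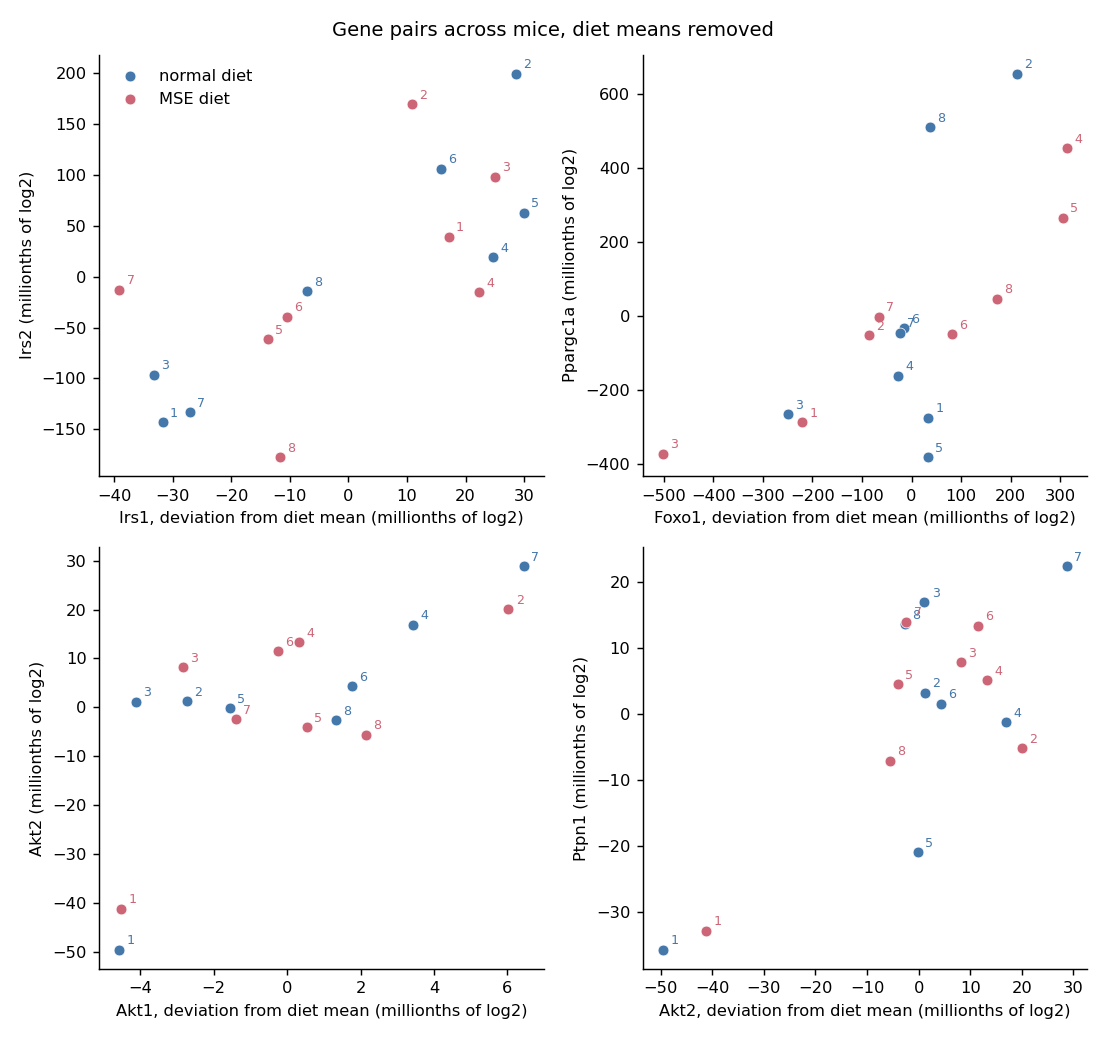
Deviations from the diet mean in 16 mice (both axes, millionths of a log2 unit, numbers are replicates) for the 4 gene pairs whose Pearson correlation passed the adjustment over 51. Irs1 and Irs2 form a band over all mice (r 0.74), as do Foxo1 and Ppargc1a (r 0.69), whereas Akt2 and Ptpn1 (r 0.76) lose it without the mice numbered 1 (r 0.23).

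Promoters of the members were searched for a pair of motifs bound by FoxO factors, GTAAACA and the insulin response element core TGTTTTG, on both strands. RefSeq sequences of build GRCm38.p6, from 250 bases before to 50 bases after the transcript start, were matched for 8 of the 9 members (13 promoters), all but Insr. TGTTTTG occurred in 2 members, Irs1 and Irs2, and in 6.28% of 32851 promoters of this length. In both genes it lies on the gene's own strand, 111 and 32 bases before the start in Irs1 and 37 bases before it in Irs2. GTAAACA, found in 3.65% of all promoters, occurred in 1 of the 2 Akt1 promoters, 161 bases before the start on the opposite strand. A match describes letters and says nothing of binding. Across mice Foxo1 had an r of -0.01 with Irs1 and of -0.19 with Irs2. Whether the motif has a part in how the adaptor genes varied was not tested. The 150 bases before the start of each adaptor gene are shown because they carry the shared motif, which is in capitals, for Irs1 at chr1:82291440-82291589 and for Irs2 at chr8:11008930-11009079, both on the minus strand:
Irs1: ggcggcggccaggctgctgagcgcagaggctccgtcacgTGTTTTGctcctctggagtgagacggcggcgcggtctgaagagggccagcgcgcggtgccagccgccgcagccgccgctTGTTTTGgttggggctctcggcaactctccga
Irs2: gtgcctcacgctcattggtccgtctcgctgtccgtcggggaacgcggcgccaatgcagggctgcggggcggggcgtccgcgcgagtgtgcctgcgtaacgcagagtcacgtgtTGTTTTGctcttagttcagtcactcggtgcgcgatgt

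The subunit genes of phosphoinositide 3-kinase had opposite signs. Pik3r1, the regulatory subunit, ran from -23.8 (median 3.62) to 48.8 on the normal diet and from -40.1 (median -16.1) to 50.0 with MSE. MSE replicate 1 was as high as the highest normal-diet mice, and the other MSE mice were at 10.1 or below. Pik3r1 was 0.55 SDs lower with MSE, a standardized difference of -0.55 (95% interval -1.59 to 0.49; limma adjusted p 0.921; exact permutation p 0.282), and the MSE mouse was lower in 43 of 64 pairs. It was at -0.07 after centring on array medians, -0.19 as the mean of its probe sets and -0.99 without MSE replicate 1. Its other 3 probe sets were lower too, with standardized differences of -0.14, -0.57 and -0.32, and within diets they varied with the main one at an r between 0.49 and 0.81.

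Pik3ca, the catalytic subunit, ran from -3.93 (median -0.947) to 1.62 on the normal diet and from -5.17 (median 1.48) to 8.05 with MSE. The MSE mice spread more widely, with an SD of 5.26 against 1.99 (n = 8 each), a contrast seen after the values were known and not tested. The standardized difference was 0.43 (95% interval -0.63 to 1.49; limma adjusted p 0.944; exact permutation p 0.40), and the other 5 probe sets lay between -0.08 and 0.20. Pik3r1 minus Pik3ca differed between the diets by -0.98 ± 0.79 (SE, n = 8 per diet; exact permutation p 0.235, adjusted 0.353 over the 3 pairs). That difference was -2.09 and passed after quantile normalization, in which Pik3ca alone was 2.33 SDs higher with an adjusted p of 0.254.

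Neither Akt gene differed between the diets by more than the spread among mice. Akt1 ran from -3.72 (median 0.735) to 7.29 on the normal diet and from -5.37 (median -0.819) to 5.18 with MSE, and its standardized difference was -0.48 (95% interval -1.54 to 0.58; limma adjusted p 0.943; exact permutation p 0.353), which turned sign after centring on array medians. Of its other probe sets 1425711_a_at was at -0.31, while 1440950_at and 1442759_at were at 0.45 and 0.88 and varied against the main one within diets (r -0.56 and -0.42). Akt2, the isoform that carries most of insulin's metabolic action in liver, ran from -49.8 (median 0.871) to 28.5 on the normal diet and from -40.8 (median 3.25) to 20.4 with MSE. Replicate 1 of each diet was far below the other mice. The standardized difference was 0.03 (95% interval -1.01 to 1.07; limma adjusted p 0.999; exact permutation p 0.949). Leaving out normal-diet replicate 1 gave -0.40 and leaving out MSE replicate 1 gave 0.36, and the value also turned negative without MSE replicate 2, 3, 4 or 6, so its sign rested on single mice. The other Akt2 probe sets were at -0.37 and -0.46.

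Akt2 minus Akt1 differed between the diets by 0.51 ± 0.39 (SE, n = 8 per diet; exact permutation p 0.209, adjusted 0.353), so a difference between the isoforms was not detectable. Across mice they varied together, at an r of 0.71 (permutation p 0.00376, adjusted p 0.0479) and a rho of 0.56 (permutation p 0.0317, adjusted p 0.487). The r was 0.60 without the 2 mice farthest from the median of Akt1, 0.63 without both mice numbered 1, and -0.02 after quantile normalization. Akt2 also varied with Ptpn1 (r 0.76, permutation p 0.00367, adjusted p 0.0479; rho 0.41, permutation p 0.129, adjusted p 0.599). That relation rests on replicate 1 of each diet, the lowest mice for both genes, since r was 0.23 without them.

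Foxo1, the transcription factor restrained by Akt, had the widest spread of the 9 genes, larger than in 97.0% of all genes. It ran from -168 (median 90.0) to 293 on the normal diet and from -582 (median -72.8) to 233 with MSE. Of the normal-diet mice all but replicate 3 were above the overall mean, and the MSE mice lay on both sides of it, with replicate 3 lowest. Foxo1 was at a standardized difference of -0.75 (95% interval -1.79 to 0.29; limma adjusted p 0.848; exact permutation p 0.159), lower in 44 of 64 pairs, and its sign turned after quantile normalization, to 0.13. All 4 Foxo1 probe sets were lower as deposited. The probe sets 1416981_at and 1416982_at were at -0.96 (lower in 48 of 64 pairs, unadjusted limma p 0.0666) and -1.02 (lower in 47 pairs, unadjusted limma p 0.0536), and 1456529_at, near the array median at 5.93 log2 units, was at -0.47. The first of these varied with the main probe set at an r of 0.76 within diets, the second at 0.89 and the last at 0.01.

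Foxo1 varied with Ppargc1a, the gene of the coactivator PGC-1 alpha with which Foxo1 drives glucose production. Pearson's r was 0.69 over 16 mice after removal of the diet means (permutation p 3.4e-04, adjusted p 0.0173), and Spearman's rho was 0.69 (permutation p 0.0034, adjusted p 0.133). It was 0.61 without MSE replicates 3 and 4, the mice farthest from the median, 0.70 after centring and 0.16 after quantile normalization. Foxo1 had an r of 0.56 with Pck1, the gluconeogenic PEPCK gene (permutation p 0.0684, adjusted p 0.317), 0.55 with Srebf1 (permutation p 0.0431, adjusted p 0.275), 0.00 with Igfbp1 (permutation p 0.996) and -0.25 with G6pc (permutation p 0.36). In all, 4 of 51 correlations passed the adjustment by Pearson's r and 0 by rank. Of the 36 pairs of members, 23 were positive as deposited, with a median r of 0.10, against 35 (median 0.63) after centring and 27 (median 0.39) after quantile normalization.

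Ptpn1, the phosphatase that dephosphorylates the insulin receptor, had the largest standardized difference of the members as deposited. It ran from -28.6 (median 9.50) to 29.5 on the normal diet and from -39.9 (median -2.21) to 6.94 with MSE. Of the normal-diet mice 5 were above the highest MSE mouse, and replicate 1 was the lowest mouse on either diet. Ptpn1 was at -0.80 (95% interval -1.84 to 0.24; limma adjusted p 0.831; exact permutation p 0.135), lower in 49 of 64 pairs, but at -0.03 after centring on array medians and 0.12 after quantile normalization. The array medians themselves differed by -13.1 millionths between the diets and the median gene by -0.0838, beside -14.1 for Ptpn1. Whether a shift of whole arrays has a part in the Ptpn1 difference was not tested. The second probe set, 1438670_at, was at -1.21 (95% interval -2.26 to -0.15) and lower in 51 of 64 pairs, with an unadjusted limma p of 0.0274, an adjusted p of 0.724 over all probe sets and an exact permutation p of 0.0322. It varied with the main one at an r of 0.32 within diets. Without normal-diet replicate 1 the main probe set was at -1.29 (unadjusted limma p 0.0227, adjusted p 0.59), and without MSE replicate 1 it was at -0.61.

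Over all 28 probe sets of the 9 genes, 10 were higher and 18 lower with MSE as deposited. Of these, 2 had an unadjusted limma p under 0.05, against 6.53% of the 34958 probe sets that name 1 gene, and 0 an adjusted p under 0.05, as for all probe sets (0%). Foxo1, Ptpn1 and Pik3r1 were lower on every one of their probe sets, whereas Insr, Pik3ca, Akt1 and Akt2 had probe sets of both signs. Probe sets of a gene share its RNA and are not replicates.

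**Figure D3:**
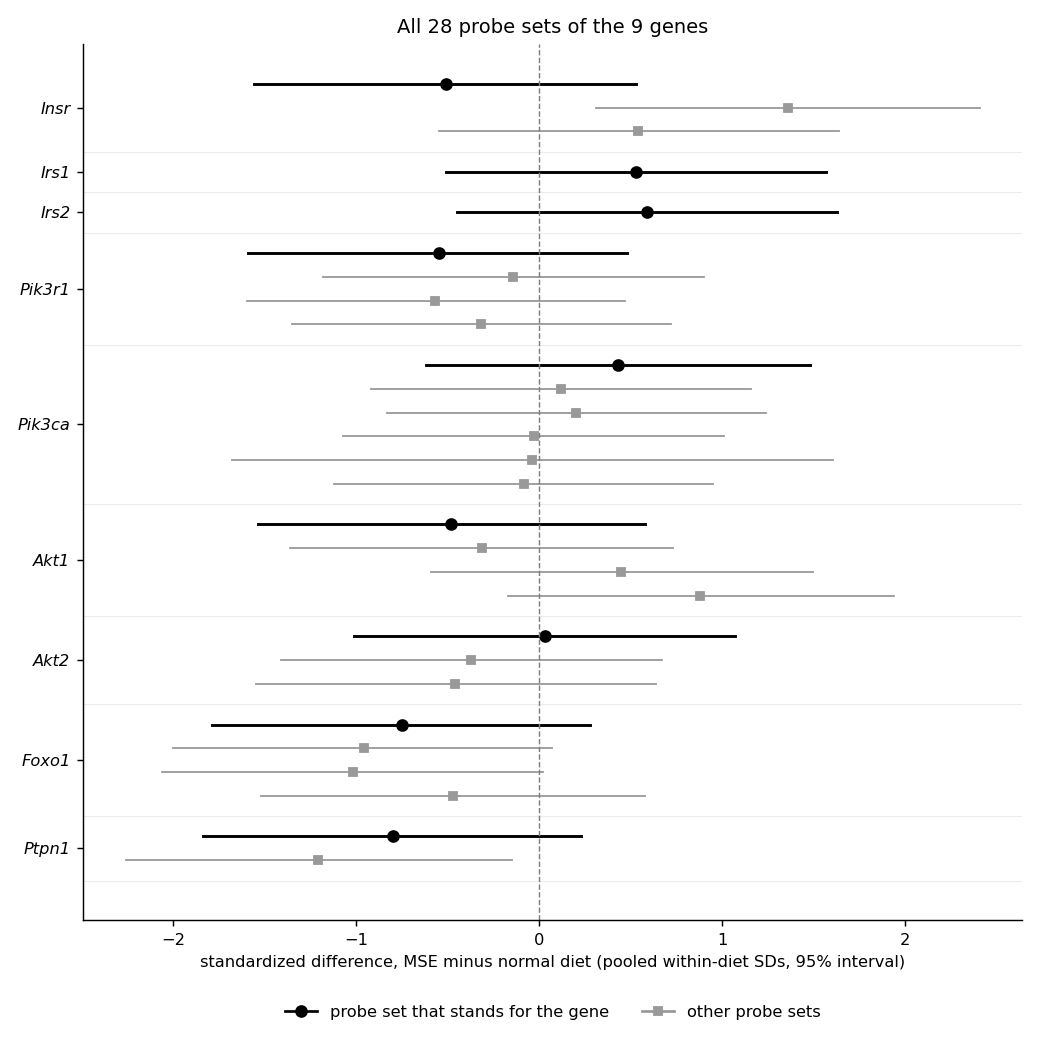
Standardized difference between the diets as deposited (horizontal axis, pooled within-diet SDs, MSE minus normal, bars are 95% intervals of limma) for the 28 probe sets of the 9 genes. Black circles stand for the gene and grey squares are its other probe sets, of which 1 of Insr (1.36) and 1 of Ptpn1 (-1.21) have an interval that leaves out 0.

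The authors' deposited table holds false discovery rate estimates per probe set and direction, from a test not given in the sources used here, and some of these estimates exceed 1. Of the 28 member probe sets 4 have, in the authors' deposited table, a rate under 0.05 in at least 1 direction, against 4.81% of all probe sets that name 1 gene. Irs2 has a rate of 0.017 for higher expression with MSE in the authors' deposited table, where 2.1% of probe sets have a rate under 0.05 in that direction. The Irs2 probe set was at the low level of 6.36 log2 units. For lower expression, which 3.09% of probe sets reach, the authors' deposited table gives Foxo1 a rate of 0.00366 on its main probe set and 0.0109 on 1416981_at. The Pik3r1 probe set 1425514_at has a rate of 0.0263 for higher and 0.00864 for lower expression in the authors' deposited table, so it is listed in both directions. These include the 3 member probe sets with the largest pooled SD, at 1080 millionths of a log2 unit for that of Pik3r1, 216 for Foxo1 and 113 for Irs2. None of the 4 had a limma adjusted p under 0.05.

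Other genes of the pathway, in 9 lists by role, gave no gene past the adjusted threshold either. Of 114 listed genes 102 were measured, 37 of them higher and 65 lower with MSE as deposited, with a median standardized difference of -0.16 against -0.02 over all genes. At an unadjusted p under 0.05 there were 3 higher and 8 lower genes, where 2.59% of all genes were higher and 4.07% lower, and the smallest adjusted p was 0.564. These counts depend on scaling, and 13 of the 27 genes named by rule from these lists turned sign after centring on array medians. Centring takes the diet difference of the array medians, -13.1 millionths, off every gene, so smaller negative differences turn by arithmetic. The median difference over all genes was -0.0838 millionths as deposited.

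**Figure D4:**
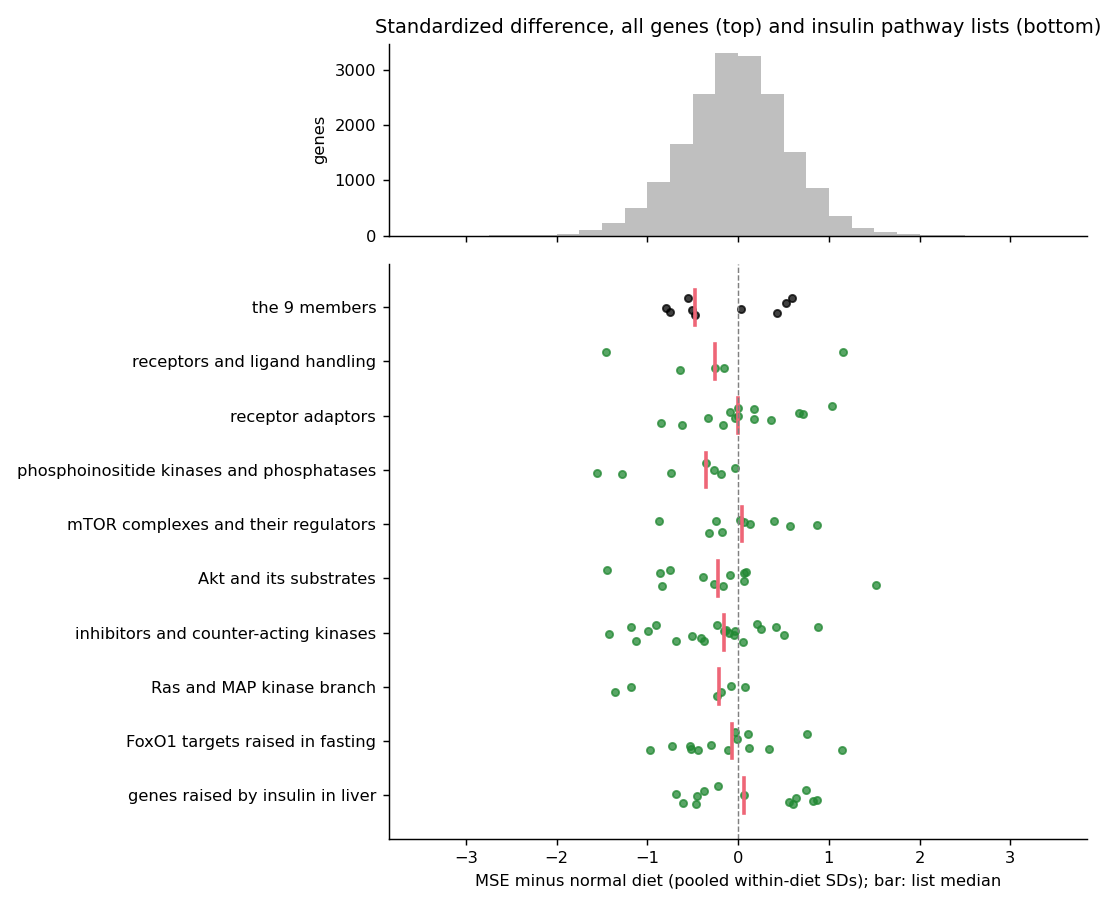
Standardized difference between the diets as deposited (horizontal axis, pooled within-diet SDs, MSE minus normal) of all 18194 genes as a histogram (top, number of genes) and of single genes by list (bottom, 1 point per gene, red bar for the list median). All 7 phosphoinositide list genes lie below 0 as deposited, a side that Pik3r3, Pik3cb and Pik3r2 leave after centring on array medians, and the other lists straddle it.

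Among phosphoinositide kinases and phosphatases all 7 measured genes were lower as deposited (median -0.35). Pik3r3, another regulatory subunit, was at -1.56 (lower in 56 of 64 pairs, unadjusted limma p 0.00623), and Pik3cb, the beta catalytic subunit, at -1.28 (lower in 52 pairs, unadjusted limma p 0.0201). Pik3r2 was at -0.74. After centring these 3 were at 0.03, 0.19 and 0.36.

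Of 5 genes of receptors and ligand handling, Ceacam1, which promotes insulin clearance by hepatocytes, was 1.16 SDs higher (53 of 64 pairs, unadjusted limma p 0.0319), with 7 of its 8 probe sets on that side, and kept its sign under both scalings. Igf2r, the mannose 6-phosphate receptor that also binds IGF2, was at -1.46 (lower in 54 pairs, unadjusted limma p 0.00924), but at -0.01 after centring and 0.38 after quantile normalization. Igf1r was at -0.64 as deposited and turned under both scalings. The adaptors split into 7 higher and 7 lower genes with 0 at an unadjusted p under 0.05. Grb14, an inhibitor of the receptor kinase, was at 1.03 (higher in 53 pairs, unadjusted limma p 0.0518), but at 0.05 after quantile normalization, and its second probe set had the other sign. Grb10, at a level of 6.18 log2 units, was at 0.71 and higher in 40 pairs. Its median was nonetheless -8.02 with MSE against -7.06 on the normal diet, and its highest values were 154 and 1.79. Shc1 was at -0.85 as deposited, 0.03 after centring and -1.92 without normal-diet replicate 1.

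Of 12 measured Akt substrates and relatives 8 were lower as deposited. Tbc1d4, a Rab GTPase-activating protein phosphorylated by Akt, was 1.52 SDs higher (55 of 64 pairs, unadjusted limma p 0.00719), although its second probe set had the other sign. It was at 0.88 after centring, 0.21 after quantile normalization and 2.63 without normal-diet replicate 4. Foxo4 was at -1.44 (lower in 53 pairs, unadjusted limma p 0.0107), with a turn after centring and on its second probe set, and Gsk3b at -0.86, with a turn to 1.11 after quantile normalization. Genes of the mTOR complexes were at a median of 0.04, with Deptor, an inhibitor of mTOR, at 0.87, Mapkap1 at -0.87 as deposited and the other way under both scalings, and Tsc2 at 0.57, or -0.45 after quantile normalization.

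Of 21 measured genes in the list named inhibitors and counter-acting kinases, 15 were lower as deposited. The list was drawn by name, and the action of its genes in these livers was not measured. The suppressor of cytokine signalling Socs6 was at -1.42 (lower in 50 of 64 pairs, unadjusted limma p 0.0113), the atypical protein kinase C gene Prkci at -1.13 (lower in 52 pairs, unadjusted limma p 0.037) and the stress kinase gene Mapk8 at -0.99, and all 3 turned sign after centring, to 0.19, 0.23 and 0.14. The second Prkci probe set had the other sign as deposited. In the Ras and MAP kinase branch Nras was at -1.36 (unadjusted limma p 0.0147) and Map2k1 at -1.18 (unadjusted limma p 0.0294), both turned by centring and by quantile normalization, and Sos1 was at -0.23, or 0.40 after centring.

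Transcripts known as outputs of the pathway had medians near 0. Of 14 Foxo1 targets that rise in fasting 5 were higher and 9 lower (median -0.07). Txnip, an inhibitor of thioredoxin and of glucose uptake, was 1.15 SDs higher in 51 of 64 pairs (unadjusted limma p 0.0323), a sign kept under both scalings. Bcl6, a transcriptional repressor, was at -0.97 and Pdk4, the kinase that inactivates pyruvate dehydrogenase, at 0.76. Of 13 genes that insulin raises in liver 7 were higher and 6 lower (median 0.07), with Onecut1 at 0.87, the desaturase gene Scd1 at 0.82, and Acaca, acetyl-CoA carboxylase, at 0.75, or -0.17 after quantile normalization.

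By likeness over mice, measured as Pearson's r of deviations from the diet mean over 16 mice and given as a description of arrays that share their processing, the genes closest to Ptpn1 were Taf10 (0.88), Cope (0.85) and 1700110K17Rik (0.84). Those closest to Foxo1 were Tmc7 (0.89), Lmnb1 (0.86) and Plekhg5 (0.86), and those closest to Irs2 were Idi1, Rbm12b2 and Nmrk1 (0.79 each). After centring on array medians the r of Foxo1 with Lmnb1 was 0.42 and that of Irs2 with Rbm12b2 was 0.45, whereas Foxo1 with Tmc7 stayed at 0.88 and Irs2 with Idi1 at 0.76.

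Markers of other liver cells were set beside these values, since in whole liver fewer cells of a type and less RNA per cell cannot be told apart. All 10 macrophage and Kupffer cell markers were lower with MSE as deposited, 0 of them at an unadjusted limma p under 0.05 and 0 at an adjusted p under 0.05. Their mean z value ran from -0.96 (median 0.43) to 1.18 on the normal diet and from -0.98 (median -0.50) to 0.90 with MSE, beside the lower Ptpn1 and Foxo1 values, and their part in those was not tested. Hepatocyte markers split into 3 higher and 4 lower genes, with a mean z value between -0.43 and 0.67 on the normal diet and between -0.59 and 0.55 with MSE. Stellate cell markers were higher in 7 of 8 genes (median 0.31) and sinusoidal endothelial markers in 5 of 8 (median 0.26), with 2 higher and 1 lower at an unadjusted limma p under 0.05 in the endothelial list and 0 in the stellate list. T and NK cell markers were higher in 4 of 5 genes (median 0.43, 1 higher at that p), and neutrophil markers were lower in 5 of 5 (median -0.20, 0 at that p). Over all genes 48.3% had a higher and 51.7% a lower mean with MSE. At an unadjusted limma p under 0.05, 2.59% of all genes were higher and 4.07% lower. None of these marker lists had a gene at an adjusted p under 0.05, and their part in the members' values was not tested.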

How the data were processed

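Per the labels' protocols, biotin-labelled cRNA was made from DNase-treated total liver RNA with a 3' in vitro transcription kit. The authors deposited log2-like values for 45101 probe sets on 16 arrays. Base 2 was read from the values themselves (5.05 to 14.6). Per the submitters' processing notes R 3.2.2 was among the tools, while summarization and normalization are not given in the sources used here. False discovery rate estimates in the authors' deposited table exceed 1 in places and were kept as a score.

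GEO's annotation of the array gave 1 gene for 34958 probe sets. Those with several genes (932) or no entry (9211) were not used. The diet comparison was a limma 3.58.1 model under R 4.3.3 (lmFit and eBayes, two-sided, Benjamini-Hochberg adjustment over 18194 genes, threshold 0.05), without covariates. Exact permutation tests covered single genes and 3 gene pairs, and correlations used 100000 permutations of mice within diets (Python 3.11.15, NumPy 2.4.6, SciPy 1.17.1). Simulated data held these 18194 genes, with noise drawn independently for each gene and shifts in a small share of them. There limma recovered 1.49% of shifts of 1 SD, 30.1% of 2 SD and 78.8% of 3 SD.

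The members and lists were chosen with earlier results of these data known. The rule named all members, the 3 genes most like each of the 3 members with the largest standardized difference, the 3 genes of each pathway list with the smallest p and any other with an unadjusted p under 0.05. Alternatives were centring, quantile normalization, trend and robust estimation, array weights and a replicate block. Others were the mean of probe sets, all probe sets, the 9097 genes above the median level, a threshold of 0.1 and leaving out each mouse. Leaving out both mice numbered 1 was added after seeing the data. Precision is set by the 8 mice per diet.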

Additional observations from a re-analysis of the deposited data

Results flagged for a closer look

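In 8 of 110 groups of 8 mice, over the members' probe sets and the pathway genes named by rule, a single mouse lay far from the rest, past Dixon's 95% limit. About 1 in 20 groups would do so by chance. The values are the gap to the nearest mouse divided by the range. Replicate 1 was low for Akt2 on the normal diet (0.599) and on the MSE diet (0.581), for Ptpn1 on the MSE diet (0.55), for Shc1 on the normal diet (0.60) and for Map2k1 on the MSE diet (0.582). The Akt1 probe set 1442759_at was low in MSE replicate 2 (0.55). Grb14 was high in normal-diet replicate 8 (0.531) and Tbc1d4 in normal-diet replicate 4 (0.575).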

How the results depend on the processing

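In every alternative run, 0 of the 9 members passed an adjusted p under 0.05. Over all genes limma's 0 calls became 3 after quantile normalization, 1 with the replicate block and 1 among genes above the median level. They were 1 at a threshold of 0.1 and 0 to 2 without 1 mouse (2 without normal-diet replicate 2, 1 without MSE replicate 7). The 1212 genes at an unadjusted p under 0.05 were 230 after centring and 1020 to 1394 without 1 mouse. They were 795 among the 9097 genes above the median level and 2283 over all probe sets, where other numbers were tested. Genes at that p were 471 higher and 741 lower as deposited, 157 and 73 after centring, and 780 and 686 after quantile normalization. The members higher numbered 7 after quantile normalization. Members at an unadjusted p under 0.05 numbered 2 after it (Pik3ca and Akt2), 1 with the replicate block (Ptpn1, at -1.37, adjusted p 0.471) and 0 to 1 without 1 mouse (Ptpn1 without normal-diet replicate 1). The replicate block value is divided by the residual SD left after removal of replicate effects. Its size is therefore not on the scale of the main model. Same-numbered mice correlated between -0.026 and 0.22, with 5 of 8 over 0.1. Normal-diet replicates 1, 3, 5 and 7 correlated best with the MSE mouse of their own number. The mice were pair-fed, but the labels do not state which mice were matched, so the main model has no pairing. Whether the replicate numbers pair mice was not settled, so the replicate block cannot be read as pair-fed pairs. With the replicate block 1614 genes had an unadjusted limma p under 0.05. The replicate block gave the same pair differences, with sign-flip p of 0.852, 0.125 and 0.18, and changed no other member call. Centring turned Insr to 0.28, Akt1 to 0.36 and Akt2 minus Akt1 to -0.04. Quantile normalization turned Insr to 0.26, Foxo1 to 0.13, Ptpn1 to 0.12 and the r of Akt1 with Akt2 to -0.02, and made Pik3r1 minus Pik3ca -2.09, past the threshold. The mean of probe sets turned Insr to 0.37, Akt1 to 0.34, Akt2 to -0.11 and Akt2 minus Akt1 to -0.46. The MSE mouse was higher for Akt2 in 30 of 64 pairs, against the sign of its mean. Without 1 mouse Insr ran from -0.81 to -0.31, Irs1 from 0.36 to 0.81, Irs2 from 0.40 to 0.94, Pik3r1 from -0.99 to -0.37, Pik3ca from 0.19 to 0.69, Akt1 from -0.79 to -0.25, Foxo1 from -1.02 to -0.54, Ptpn1 from -1.29 to -0.61, Akt2 from -0.40 to 0.36, Irs2 minus Irs1 from -0.19 to 0.25 and Sos1 from -0.63 to 0.04. Of the correlations, 21 of 51 passed after centring and 9 of 48 after quantile normalization, among them 4 and 0 of the 4 that passed as deposited. Pairs with Pck1, that of Foxo1 included, could not be computed after quantile normalization. Array medians had an SD of 30.4 millionths, above the pooled SD of 7 members, so centring puts a shared term into these genes. It also moves the diet difference of every gene by the same amount, so a turn of sign under it is no separate test of a gene. Quantile normalization left 1466 genes constant. Of the 27 pathway genes named by rule, centring turned 13: Igf1r to 0.39, Shc1 0.03, Pik3r3 0.03, Pik3cb 0.19, Pik3r2 0.36, Mapkap1 0.35, Foxo4 0.21, Socs6 0.19, Prkci 0.23, Mapk8 0.14, Nras 0.16, Map2k1 0.16 and Sos1 0.40. Quantile normalization turned Igf2r to 0.38, Igf1r to 0.48, Mapkap1 to 0.20, Tsc2 to -0.45, Gsk3b to 1.11, Prkci to 0.63, Nras to 0.21, Map2k1 to 1.08 and Acaca to -0.17. Where no cause is named here, the cause was not tested.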
